A study of Mus musculus with 12 samples.

Results

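Transcripts of 10 endoplasmic reticulum (ER) stress genes were examined in the hippocampus of mice that lack TIF-IA in adult excitatory neurons. They were Atf6, Hspa5, Pdia4 and Herpud1 of the ATF6 branch, Ern1 and Xbp1 of the IRE1 branch, Atf4, Ddit3 and Trib3 of the PERK branch, and the chaperone Clgn, which belongs to none of the 3 branches. Probes were taken by gene symbol from the platform annotation, which gave 19 probes out of 45135 on the array and 10 genes out of 19031 with a name. Of the 19 probes, 14 were above background in at least 1 genotype, and 12 probes of 8 genes were detected in all 11 animals.

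The mutants were TIF-IA CaMKCreERT2 mice, in which a Cre recombinase that tamoxifen activates is driven by the Camk2a promoter, a promoter of forebrain excitatory neurons, and deletes the floxed TIF-IA gene (Rrn3). TIF-IA is the initiation factor that RNA polymerase I needs to transcribe ribosomal RNA. The methods describe the controls as TIF-IA flox/flox littermates without Cre, whereas their sample labels call them wild type. All animals were of the C57Bl/6N strain, were injected with tamoxifen at 2 months of age and gave tissue 4 weeks afterwards. Total RNA of hippocampal sections from 6 mutants and 5 controls was hybridised to Illumina BeadChips, on which a probe's signal is the mean brightness of its beads. Other hippocampal cells, in which the promoter is not active, contributed to the same RNA, and in such bulk samples fewer cells of a type and less RNA per cell cannot be told apart.

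RNA of mutant 6 was run on 2 arrays, which correlated at r = 0.992 over 20626 probes and were averaged, so that 12 arrays gave 11 animals. The number of detected probes per array lay between 19193 and 21889. The animals' own numbers fall into a 200s series of 3 mutants and 4 controls and a 300s series of 3 mutants and 1 control. Xist was at background in mutant 3 and control 4 and bright in the other 9 animals. Rrn3 (ILMN_2729771) had a signal of 7.71 to 7.99 (log2) in mutants, against 8.25 to 8.55 in controls, with no overlap, and its difference of -0.55 (SE 0.07) had an exact two-sided permutation p of 0.00216, the smallest that splitting the 11 animals can give. The limma adjusted p of this probe was 0.152. The other Rrn3 probe, ILMN_2460879, was not well above background in either genotype and has no fold. Whether ILMN_2729771 lies in the deleted exon was not analysed here.

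The ER folds secreted and membrane proteins, and unfolded proteins that build up there set off the unfolded protein response through 3 sensors of its membrane. ATF6 travels to the Golgi, is cleaved and then switches on chaperone genes as a transcription factor. IRE1 (gene Ern1) is an RNase that removes an intron from the Xbp1 transcript so that active XBP1 is made. PERK phosphorylates the initiation factor eIF2alpha, which lowers translation in general but raises that of ATF4, and ATF4 then activates genes such as Ddit3 and Trib3. In neurons the response is known from models of neurodegeneration and of altered protein synthesis. The arrays measured transcript levels only, and cleavage, splicing and translation were not measured.

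The members did not move together. Both probes of Ddit3, the proapoptotic transcription factor CHOP, and 1 of 2 probes of Clgn were higher in mutants at an unadjusted p under 0.05, while the oxidoreductase Pdia4 and 1 of 2 probes of the sensor Atf6 were lower. These 5 of 19 probes, 3 higher and 2 lower, are to be read against 3.95% of all probes at that level (1.94% higher and 2.01% lower), and against 5.27% of the probes detected in at least 5 animals. On the brightest probe of each gene they were 3 of 10 (Ddit3, Pdia4 and Atf6), against 4.54% of all named genes. At the study's threshold, an unadjusted p under 0.001, there was 1 of 19 (Clgn, ILMN_2917723), against a background of 0.0842%. No member reached an adjusted p under 0.05 (limma, Benjamini-Hochberg over all probes), a level that 1 of the 45135 probes, or 0.00222%, reached. The median difference was 0.03 (log2) over the 19 probes and 0.00 over the brightest probe of each of the 10 genes, against 0.00 over all probes and 0.01 over the brightest probes of all named genes. The members were chosen with values on these arrays known, Clgn among them, so the counts describe the genes and do not test them.

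**Figure D1:**
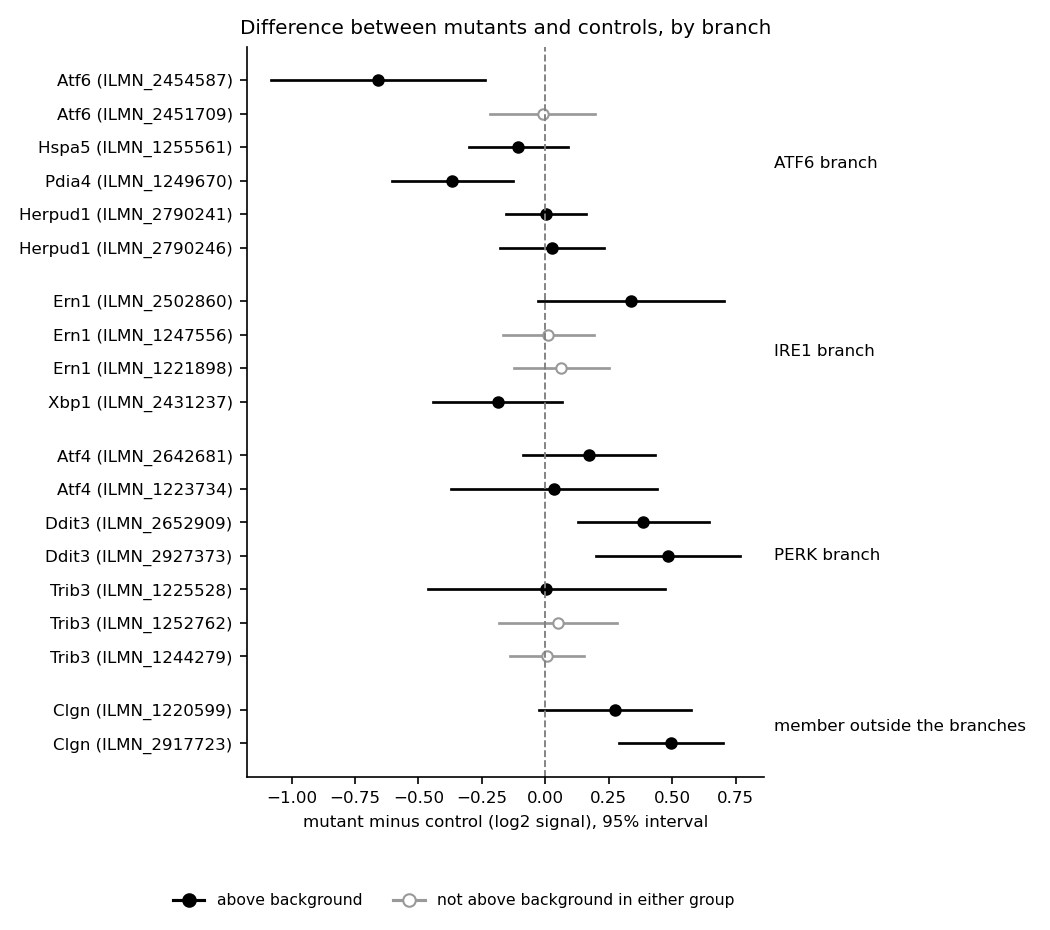
Difference between mutants and controls (mutant minus control, log2 signal, horizontal axis) for all 19 probes, ordered by branch; points are limma estimates over 6 mutants and 5 controls, lines are 95% confidence intervals, and grey open points mark the 5 probes not above background in either group. Intervals leave out 0 for both Ddit3 probes and Clgn ILMN_2917723 on the higher side and for Pdia4 and Atf6 ILMN_2454587 on the lower side.

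Within the PERK branch, both probes of Ddit3 passed an unadjusted p under 0.05 and those of Atf4 and Trib3 did not, a difference between genes that was not tested. Ddit3 encodes CHOP, which accumulates under prolonged ER stress and under other stresses that act through ATF4. On its brighter probe, ILMN_2652909, the signal was 8.50, 9.01 and 9.21 (log2; lowest, median and highest) in mutants, against 8.62, 8.78, 8.50, 8.52 and 8.54 in controls 1 to 5. Mutant 3 was the lowest of all animals, just below control 3, and the other 5 mutants lay above all controls. Its means were 8.98 ± 0.25 in mutants and 8.59 ± 0.11 in controls (SD, n = 6 and 5). The difference was 0.39 (SE 0.12, 95% confidence interval 0.13 to 0.64), a fold of 1.31, with a limma p of 0.00692 (adjusted p = 0.996) and an exact two-sided permutation p of 0.0216.

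The other Ddit3 probe, ILMN_2927373, gave 8.04, 8.58 and 8.75 in mutants, against 7.91, 8.14, 7.99, 8.16 and 7.79 in controls 1 to 5. Here mutant 3 was within the range of the controls, and the other 5 mutants were again above all controls. Its difference was 0.48 (SE 0.13), a fold of 1.40, with a limma p of 0.00315 (adjusted p = 0.996) and an exact two-sided permutation p of 0.0130. The 2 probes varied together over the 11 animals, with Pearson's r = 0.88 (permutation p = 0.00118, 0.00472 after adjustment over the 4 genes with 2 measured probes) and Spearman's rho = 0.76 (permutation p = 0.00848, adjusted 0.0339). Without the 2 animals farthest from the median r was 0.85, and with each genotype's mean removed it was 0.73 (permutation p = 0.0371, adjusted 0.148).

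Mutant 3 and the number series changed these calls. Without mutant 3 the differences were 0.48 for ILMN_2652909 and 0.57 for ILMN_2927373, and both then passed an unadjusted p under 0.001 (limma, adjusted p = 0.545 and adjusted p = 0.737). Restricted to the 9 animals with Xist signal, 5 mutants and 4 controls, they were 0.47 and 0.61, an alternative chosen after the values were seen. Within the 200s, which include mutant 3, the difference on ILMN_2652909 was 0.27 and no longer passed an unadjusted p under 0.05 (limma, adjusted p = 0.998), and that on ILMN_2927373 was 0.43. Within the 300s they were 0.54 and 0.70, with 1 control whose spread was taken to be that of the other animals.

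The 120 bases before the annotated Ddit3 start are shown because both probes of this member were higher in mutants at an unadjusted p under 0.05. They lie on the plus strand at chr10:127290673-127290792 (RefSeq, GRCm38.p6), and the capitals mark a CCAAT box on the minus strand.
Ddit3: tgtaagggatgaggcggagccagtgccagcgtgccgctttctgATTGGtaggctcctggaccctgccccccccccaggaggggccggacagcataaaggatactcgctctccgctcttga
The 300 bases around the start, from 250 before to 50 after it, were searched on both strands for CCAAT, for the CARE motif of ATF4 and C/EBP proteins (TGATGNAA), for the UPRE core bound by XBP1 (TGACGTG) and for the ER stress elements ERSE (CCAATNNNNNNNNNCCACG) and ERSE-II (ATTGGNCCACG), both of which contain a CCAAT box. The Ddit3 window held 1 CCAAT box, which 37.4% of 32851 windows share, and no match to the other letters. Only exact letters were counted, so a site with a differing base, or one outside the window, would be missed. A match or its absence describes letters in this window and nothing more. Windows were matched for 8 of the 10 members, all but Atf6 and Clgn.

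Atf4, the transcription factor upstream of Ddit3 and Trib3 in this branch, gave no call. Its brighter probe, ILMN_2642681, lay between 11.22 and 11.79 (median 11.61) in mutants and between 11.20 and 11.55 in controls, with a difference of 0.17 (95% confidence interval -0.09 to 0.43; exact two-sided permutation p = 0.190; limma adjusted p = 0.996). Its other probe, ILMN_1223734, gave 0.03 (-0.37 to 0.44). Within the 200s and the 300s the differences were 0.03 and 0.36 on the first and -0.21 and 0.28 on the second. On neither probe did the genotypes separate. Trib3, a pseudokinase induced by ATF4 and CHOP, was measured by 1 of 3 probes: ILMN_1225528 was detected in 4 of 6 mutants and 3 of 5 controls and gave 4.48, 4.94 and 5.32 (lowest, median and highest) in mutants, against 4.54, 4.66, 4.99, 5.61 and 4.56 in controls. The difference was 0.00 (-0.46 to 0.47), -0.12 within the 200s and 0.36 within the 300s. The Trib3 interval over all animals overlaps the 95% confidence intervals of both Ddit3 probes (0.13 to 0.64 and 0.20 to 0.77). Whether the 2 genes differ was not tested. The other 2 Trib3 probes were not well above background in either genotype and have no fold.

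Clgn encodes calmegin, a chaperone of the ER membrane related to calnexin and known in mice mainly from male germ cells. On ILMN_2917723 its signal was 6.00, 6.39 and 6.55 (log2; lowest, median and highest) in mutants, against 5.88, 5.94, 5.71, 5.80 and 5.82 in controls 1 to 5. Every mutant was above every control, as for 0.175% of all probes, and mutant 3 was the lowest mutant and lay just above control 2. The means were 6.33 ± 0.19 in mutants and 5.83 ± 0.09 in controls (SD, n = 6 and 5). The difference was 0.50 (SE 0.09, 95% confidence interval 0.29 to 0.70), a fold of 1.41, with a limma p of 0.000224 (adjusted p = 0.800), rank 12 of 45135, and an exact two-sided permutation p of 0.00433.

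The size of the difference depended on the treatment of the background. With the authors' deposited log2 values the difference was 0.23 and without background correction 0.24, both still at an unadjusted p under 0.001. The call, but not the difference of 0.50, depended on how the spread was estimated: with variance shrinkage that follows the mean signal it was lost at that threshold (limma, adjusted p = 0.995), as it was when the test was limited to probes detected in at least 5 animals (adjusted p = 0.998). The difference was 0.49 within the 200s and 0.51 within the 300s, where fewer animals entered and it did not pass that threshold.

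The brighter Clgn probe, ILMN_1220599, did not pass an unadjusted p under 0.05 over all animals. Its signal was 7.57, 7.97 and 8.14 in mutants, against 7.94, 7.53, 7.74, 7.86 and 7.23 in controls 1 to 5. Mutant 5 lay between controls 2 and 3 and the genotypes overlapped. The difference was 0.27 (95% confidence interval -0.03 to 0.57; exact two-sided permutation p = 0.0887; limma adjusted p = 0.996). It was 0.34 with the number series as a block and then passed that threshold (limma, adjusted p = 0.985), as it did without mutant 5 (0.35), control 1 (0.34) or control 4 (0.32). Without control 5 it was 0.17, within the 200s 0.20 and within the 300s, where control 5 is the only control, 0.67. The 2 Clgn probes correlated over animals at Pearson's r = 0.55 (permutation p = 0.0762, adjusted 0.114) and Spearman's rho = 0.68 (permutation p = 0.0246, adjusted 0.0491), with r = 0.46 when the 2 animals farthest from the median were left out. With each genotype's mean removed r was 0.21 (permutation p = 0.494, adjusted 0.494) and rho was 0.15 (permutation p = 0.677, adjusted 0.677). Where on the transcript each probe lies was not analysed here.

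**Figure D2:**
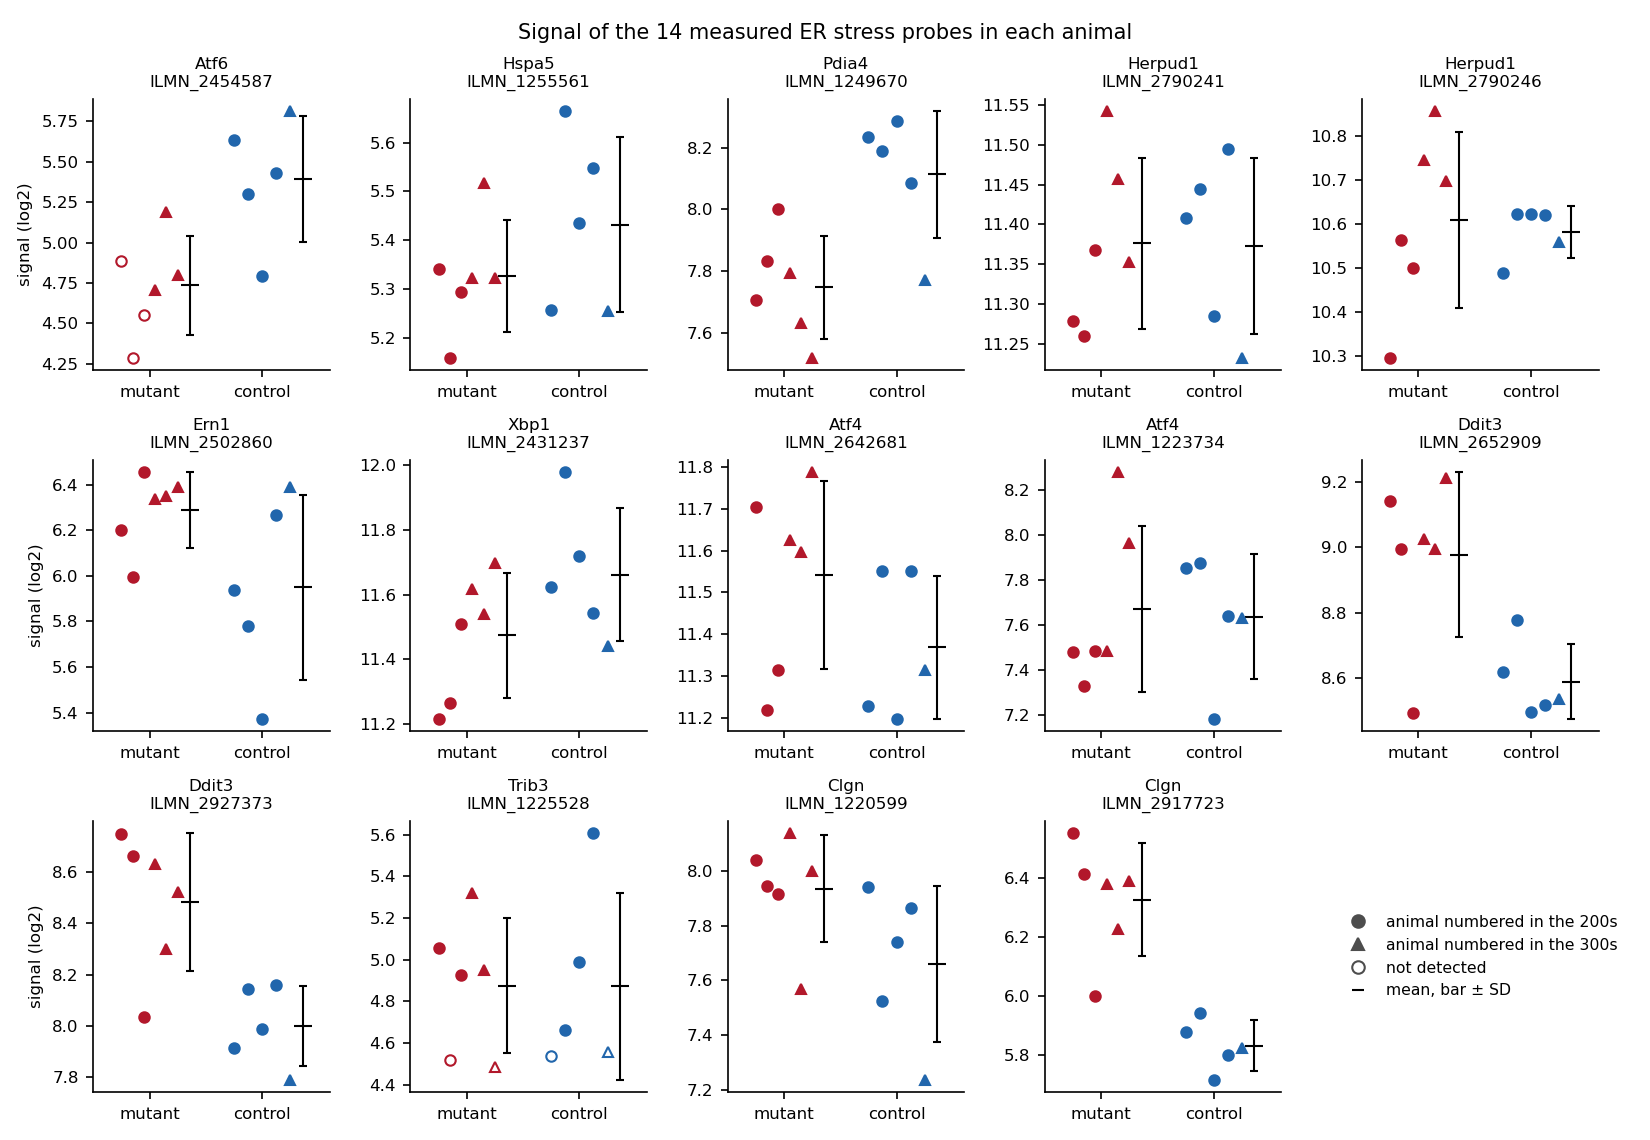
Signal (log2, vertical axes, each panel with its own scale) of the 14 probes above background in 6 mutants (red, left) and 5 controls (blue, right); circles are animals of the 200s, triangles those of the 300s, open symbols were not detected, and bars give mean ± SD. Only Clgn ILMN_2917723 has every mutant on one side of every control, and mutant 3, the third red point, lies with the controls on both Ddit3 probes.

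Ddit3 and 1 of the 2 Clgn probes, ILMN_2917723, varied alike over the animals. Among 9481 named genes detected in all animals, the 3 whose signal was most like that of Clgn (ILMN_2917723) over the 11 animals were Eed, a subunit of Polycomb repressive complex 2 (r = 0.93), Ddit3 (r = 0.93) and Mrpl47, a mitochondrial ribosomal protein (r = 0.87). For Clgn and Ddit3 (ILMN_2652909) Spearman's rho was 0.82. The 11 points share the difference between genotypes, and with each genotype's mean removed r was 0.89. Without the 2 animals farthest from the median of Clgn r was 0.93 (rho = 0.75), and within the 7 animals of the 200s it was 0.93 (rho = 0.64). The brighter Clgn probe followed Ddit3 ILMN_2652909 less closely, with r = 0.42, and r = 0.07 with each genotype's mean removed. With the other Ddit3 probe, ILMN_2927373, it gave r = 0.65, and r = 0.44 with each genotype's mean removed. For Clgn ILMN_2917723 those 2 values were 0.93 and 0.84. On both Ddit3 ILMN_2652909 and Clgn ILMN_2917723, mutants 1, 2, 4, 5 and 6 were high, mutant 3 was the lowest mutant and control 2 was the highest control.

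**Figure D3:**
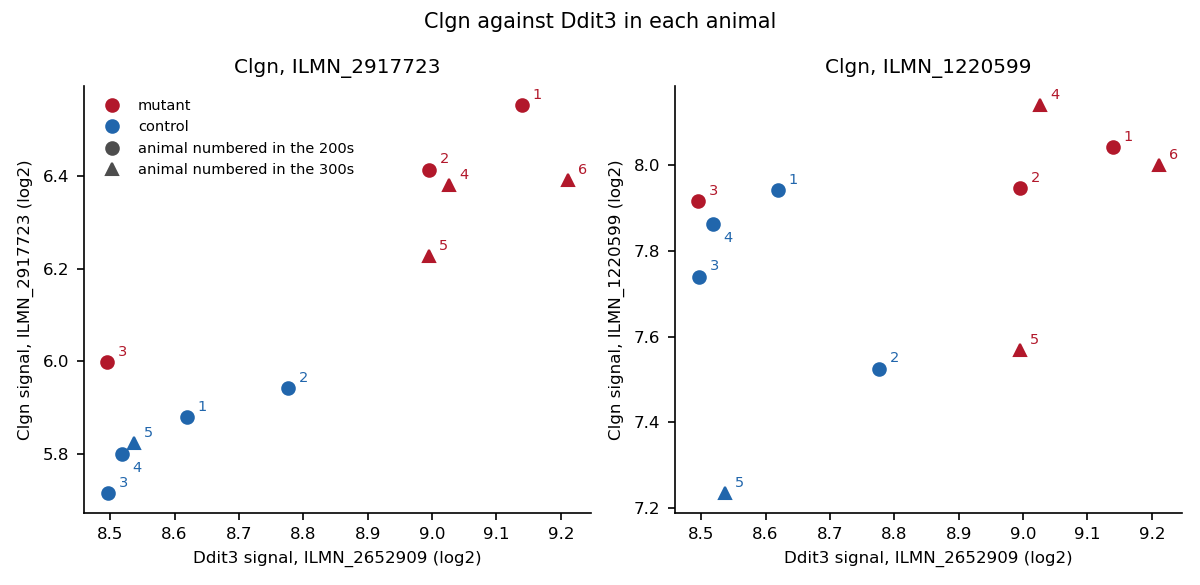
Signal of the 2 Clgn probes (log2, vertical axes) against that of Ddit3 ILMN_2652909 (log2, horizontal axis) in 6 mutants (red) and 5 controls (blue), labelled with the replicate number; circles are animals of the 200s and triangles those of the 300s. On the left, with Clgn ILMN_2917723, r was 0.93, and on the right, with ILMN_1220599, it was 0.42.

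Tissue next to the hippocampus varied between the same animals. Of 12 markers of choroid plexus and ependyma 9 were above background, all 9 had a higher mean in mutants (median difference 0.79) and 0 passed an unadjusted limma p under 0.05, with a summed level of 10.1 to 15.03 (log2) in mutants and 10.4 to 14.9 in controls. These markers were high in mutants 1, 2 and 4 and in control 4. Mutants 1, 2 and 4 were also the 3 highest animals on Ddit3 ILMN_2927373 (8.75, 8.66 and 8.63), control 4 was the highest control on it (8.16), and mutants 1 and 2 were the highest on Clgn ILMN_2917723 (6.55 and 6.41). On Ddit3 ILMN_2652909, mutant 6, lowest of all animals on the markers, was highest (9.21), and control 4 lay below all mutants but mutant 3. Of 10 markers of hippocampal excitatory neurons, the cells in which Cre is active, 8 were above background and 6 of those were lower in mutants (median -0.32), with a summed level of 12.2 to 13.3 in mutants and 12.6 to 13.4 in controls, and 1 passed an unadjusted limma p under 0.05 (Lct, -1.12). Of 10 oligodendrocyte markers 9 were above background and 8 of those were higher in mutants (median 0.26), while 6 of 8 thalamus markers were lower (median -0.14) and 4 of 7 endothelial markers were higher (median 0.01). For astrocytes and for microglia 7 of 8 markers each were lower in mutants (median -0.12 and -0.11). In these 5 lists 0 passed. The part of these cell types in the results for the members was not tested.

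Within the ATF6 branch, Pdia4 and Atf6 were lower in mutants and the chaperone Hspa5 was not detectably different. Pdia4 (also ERp72) forms and rearranges disulfide bonds in the ER and is a target of ATF6. Its probe, ILMN_1249670, gave 7.52, 7.75 and 8.0 (log2; lowest, median and highest) in mutants, against 8.23, 8.19, 8.29, 8.08 and 7.77 in controls 1 to 5. Controls 1 to 4 were above all mutants, and control 5, the only control of the 300s, lay among the mutants. The difference was -0.37 (SE 0.11, 95% confidence interval -0.61 to -0.13), a fold of 0.776, with a limma p of 0.00610 (adjusted p = 0.996) and an exact two-sided permutation p of 0.0173. It was -0.35 within the 200s and -0.12 within the 300s, where control 5 is the only control, and without control 5 it was -0.45 and passed one under 0.001 (adjusted p = 0.861).

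Atf6, the sensor itself, had 1 probe above background. ILMN_2454587 gave 4.29, 4.75 and 5.19 in mutants, against 5.64, 5.30, 4.79, 5.43 and 5.81 in controls 1 to 5. It was detected in 3 of 6 mutants, those of the 300s, and in 5 of 5 controls, so the mutant mean rests in part on signals at background. Control 3 lay among the mutants and the other controls lay above all of them. The difference was -0.66 (SE 0.19), a fold of 0.633, with a limma p of 0.00550 (adjusted p = 0.996) and an exact two-sided permutation p of 0.0173. With the authors' deposited log2 values and without background correction it was -0.21 in both cases, still at an unadjusted limma p under 0.05. Without control 3 it was -0.81 and passed an unadjusted p under 0.001 (limma, adjusted p = 0.995). The other Atf6 probe, ILMN_2451709, was not well above background in either genotype and has no fold.

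Hspa5 encodes BiP, the main Hsp70 chaperone of the ER and the usual readout of ATF6 activity. On its only probe, ILMN_1255561, the signal was 5.16, 5.32 and 5.52 in mutants, against 5.26, 5.66, 5.43, 5.55 and 5.26 in controls 1 to 5. All 11 animals were detected and the genotypes overlapped. The difference was -0.11 (95% confidence interval -0.30 to 0.09; exact two-sided permutation p = 0.268; limma adjusted p = 0.996), -0.21 within the 200s and 0.13 within the 300s. Herpud1 encodes an ER membrane protein that takes part in ER-associated degradation and is induced by more than 1 branch. Its probes gave 0.00 (ILMN_2790241, 95% confidence interval -0.15 to 0.16) and 0.03 (ILMN_2790246, -0.18 to 0.23), with signals of 11.26 to 11.54 in mutants and 11.23 to 11.49 in controls on the first. For both genes the intervals included 0, and those of Herpud1 were narrower than those of Ddit3. The Hspa5 probe lay near background, with intensities of 90.4 to 141 against array medians of 83.1 to 107.5. The width of its interval therefore cannot be set against that of Ddit3. Herpud1 was -0.11 within the 200s and 0.22 within the 300s on the first probe, and -0.14 and 0.21 on the second.

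The 120 bases before the start of 3 ATF6 branch members are shown. Hspa5 and Herpud1 hold an exact match to an ER stress element, and Pdia4 was lower in mutants at an unadjusted p under 0.05. Any link between these letters and the signals was not tested. Hspa5 lies at chr2:34771970-34772089 on the plus strand, Herpud1 at chr8:94386309-94386428 on the plus strand and Pdia4 at chr6:47813513-47813632 on the minus strand (RefSeq, GRCm38.p6). Capitals mark the matches, which are ERSE and a further CCAAT box in Hspa5, CARE on the minus strand, ERSE-II and a CCAAT box in Herpud1, and 2 CCAAT boxes in Pdia4.
Hspa5: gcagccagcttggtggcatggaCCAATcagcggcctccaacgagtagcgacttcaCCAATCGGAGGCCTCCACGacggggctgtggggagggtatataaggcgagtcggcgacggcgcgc
Herpud1: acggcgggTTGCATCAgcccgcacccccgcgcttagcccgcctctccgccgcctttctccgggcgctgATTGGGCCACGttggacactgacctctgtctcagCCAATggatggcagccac
Pdia4: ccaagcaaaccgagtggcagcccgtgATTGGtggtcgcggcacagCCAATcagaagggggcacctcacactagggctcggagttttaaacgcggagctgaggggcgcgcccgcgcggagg
ERSE in Hspa5 runs from -65 to -47 relative to the start and was found in 0.119% of all 32851 windows, and ERSE-II in Herpud1 runs from -52 to -42 and was found in 0.0365%. The Hspa5 window also held the UPRE core from -157 to -151, which 2.01% of windows share, and CARE, found in 3.97%, was in the windows of Herpud1 and Trib3. Over the 300 bases the Pdia4 window held 3 CCAAT boxes and none of the other letters, that of Atf4 held 2 CCAAT boxes, and those of Ern1 and Xbp1 held no match.

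The IRE1 branch gave no call over all animals. Ern1, the sensor and RNase, was above background on 1 of 3 probes, ILMN_2502860, with 6.00, 6.34 and 6.45 in mutants, against 5.94, 5.78, 5.37, 6.27 and 6.39 in controls 1 to 5. Controls 1 to 3 were below all mutants and controls 4 and 5 were among them. The difference was 0.34 (95% confidence interval -0.03 to 0.71; exact two-sided permutation p = 0.0823; limma adjusted p = 0.996), and -0.03 within the 300s, where control 5 is the only control. Without control 5 it was 0.45, and Ern1 passed an unadjusted limma p under 0.05 in 3 of 24 alternatives. Xbp1 lay between 11.21 and 11.70 (median 11.52) in mutants and between 11.44 and 11.98 in controls, with a difference of -0.19 (-0.44 to 0.07; exact two-sided permutation p = 0.158; limma adjusted p = 0.996). Within the 200s it was -0.39, at an unadjusted p under 0.05 (limma, adjusted p = 0.998), and within the 300s 0.18. The arrays do not tell spliced from unspliced Xbp1 unless the probe spans the intron, and its place was not analysed here.

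**Figure D4:**
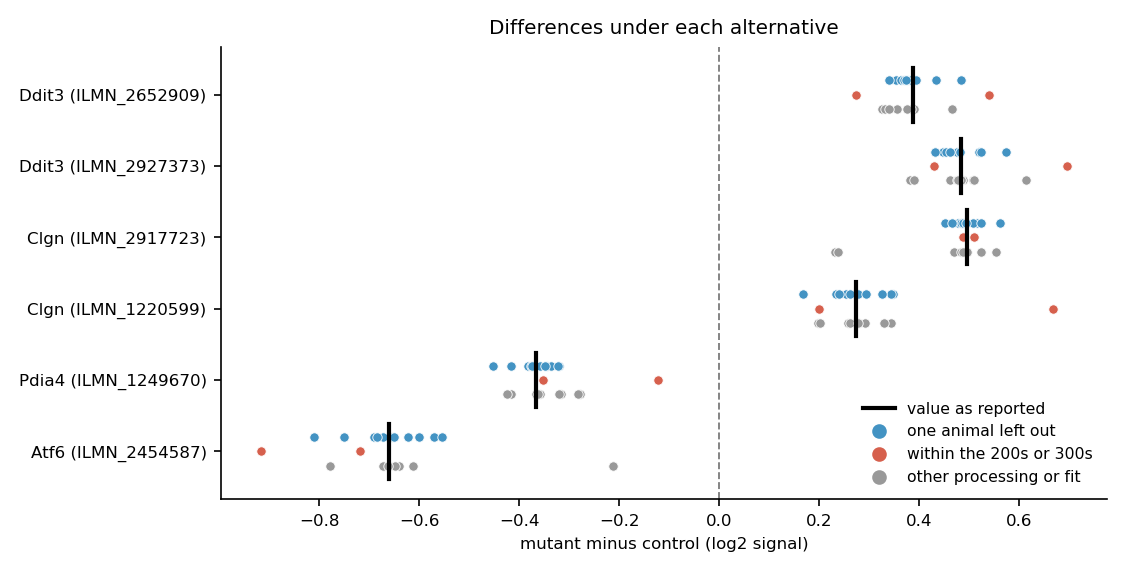
Difference between mutants and controls (log2 signal, horizontal axis) for 6 probes of Ddit3, Clgn, Pdia4 and Atf6 under each alternative. Black bars are the reported values, blue points leave out 1 animal, and red points are limited to 1 number series. Grey points are the other alternatives, which change the processing or the fit. Among these, the replicate block and the limit to animals with Xist signal also leave out animals. No point crosses 0; Clgn ILMN_2917723 and Atf6 come closest with the deposited values and without background correction, and Pdia4 within the 300s.

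Hspa5, as the reference chaperone of the response, was set against the other 9 members across the 11 animals. Its only probe lay near background, which limits these correlations. Of the 9 relations 1 had a permutation p under 0.05 and 0 did after adjustment for the 9. By Pearson's coefficient the highest was that of Xbp1, with r = 0.63 (permutation p = 0.0366, adjusted 0.329) and Spearman's rho = 0.47 (permutation p = 0.145, adjusted 0.435), and r was 0.41 without the 2 animals farthest from the median. Herpud1 (ILMN_2790241) gave r = 0.53 (permutation p = 0.0977, adjusted 0.440) and rho = 0.60, and r = 0.36 without those 2 animals. By rho Trib3 was highest (0.61; permutation p = 0.0519, adjusted 0.254), and with genotype means removed Atf4 had the highest r (0.63; permutation p = 0.0424, adjusted 0.293), against 0.56 for Xbp1. Ddit3 gave r = -0.13 (permutation p = 0.695, adjusted 0.695), and Clgn (ILMN_1220599) r = -0.33 (permutation p = 0.329, adjusted 0.481). The genes whose signal was most like that of Hspa5, as a description over 9481 genes, were Golga4, a golgin (r = 0.90), Scmh1, a Polycomb protein (r = 0.85), and Ctnnd1, which encodes p120-catenin (r = 0.84), and no gene of the response was among these 3.

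Beyond the 10 members, 131 further genes of the unfolded protein response and of ER protein quality control were listed, of which 125 had a named probe and 114 were above background on their brightest probe. Of these 114, 1 was higher and 4 were lower in mutants at an unadjusted p under 0.05, which is 4.39%, against 5.31% of all 14185 named genes above background. All 5 belong to ER-associated degradation, in which misfolded proteins are drawn out of the ER and handed to the proteasome, where they were 5 of 22 genes. None passed an unadjusted p under 0.001 or an adjusted p under 0.05 (0 of 114).

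Faf2, which recruits the extracting ATPase p97 to the ER membrane, gave 7.64, 7.93 and 8.16 (lowest, median and highest) in mutants, against 8.24 to 8.33 in controls. Every mutant was below every control, as for 0.157% of all probes. Its difference was -0.39 (SE 0.10; limma p = 0.00311, adjusted p = 0.996; exact two-sided permutation p = 0.00649). Nploc4, a cofactor of p97, differed by -0.22 (SE 0.09), the ubiquitin ligase Marchf6 by -0.25 (SE 0.11) and the ubiquitin-conjugating enzyme Ube2j2 by -0.41 (SE 0.18), the last detected in only 3 of 6 mutants and in 5 of 5 controls. Aup1, a lipid droplet and ER protein of this pathway, was higher by 0.20 (SE 0.06; limma adjusted p = 0.996; exact two-sided permutation p = 0.00649). Of these 5, Aup1, Nploc4 and Marchf6 did not pass an unadjusted limma p under 0.05 when the test was limited to probes detected in at least 5 animals, and those 3 and Ube2j2 did not with variance shrinkage that follows the mean signal. Nploc4, Marchf6 and Ube2j2 also no longer passed without mutant 1, without mutant 2 or without control 2. Ube2j2 did not pass with the deposited log2 values, without background correction or with cyclic loess, nor did Marchf6 with cyclic loess. Of 22 alternatives, Nploc4 passed in 15, Ube2j2 in 9 and Marchf6 in 8, against 22 for Faf2 and 20 for Aup1.

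In the other 5 lists 0 genes above background passed in the reported fit. Of 20 further ATF6 branch genes and ER chaperones 8 had a higher and 12 a lower mean in mutants (median -0.05), and the smallest p-values were those of Hyou1, an ER chaperone of the Hsp110 family (0.28, SE 0.15), and Pdia6, an oxidoreductase (-0.33, SE 0.19). Of 23 IRE1 branch genes 12 were higher and 11 lower (median 0.03), led by the coat protein Sec24d (-0.18, SE 0.09) and the translocon subunit Sec61a1 (-0.15, SE 0.07). Of 33 genes of the PERK branch and the integrated stress response 20 were higher and 13 lower (median 0.03).

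In that last list the smallest p-values were those of Atf5, a transcription factor translated like ATF4 (0.26, SE 0.12), and of Gadd45a, a stress and growth arrest gene (0.38, SE 0.18), each with an exact two-sided permutation p of 0.0693. Both had overlapping genotypes. Of 22 alternatives, Atf5 passed an unadjusted limma p under 0.05 in 9 and Gadd45a in 5. Ube2j2, of the degradation list, passed in 9 and Marchf6 in 8. Of the genes named from the ATF6 and IRE1 lists, Sec24d passed in 6, Pdia6 and Sec61a1 in 3 each and Hyou1 in 2. The calnexin cycle gave medians of 0.01 over 12 genes and the CREB3 family 0.05 over 4, with Creb3l1, a bZIP factor of the ER membrane, at 0.20 (SE 0.14). Pdilt and Creb3l4, also at the small end of p-values in their lists, were not well above background in either genotype and have no fold. The median over all 114 genes was -0.00, against 0.01 over all named genes above background.

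**Figure D5:**
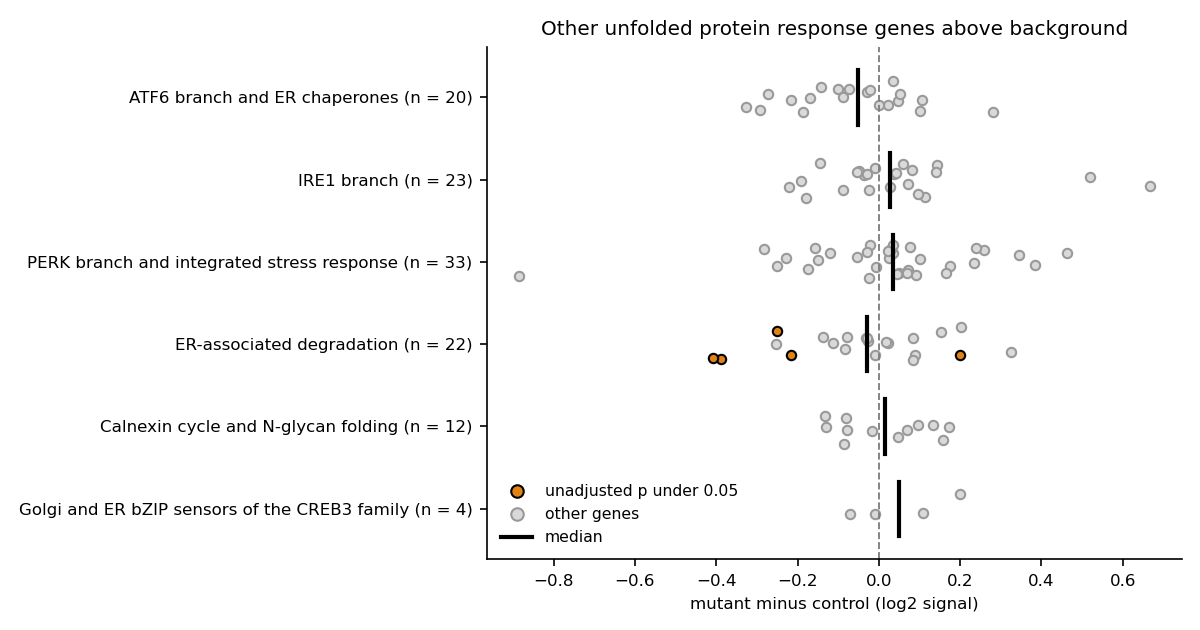
Difference between mutants and controls (log2 signal, horizontal axis) for the 114 further genes above background, in 6 lists; each point is the brightest probe of a gene, orange points have an unadjusted p under 0.05, and black bars are medians. The 5 orange points, 4 on the lower and 1 on the higher side, all lie in the list for ER-associated degradation, and the medians lie between -0.05 and 0.05.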

How the data were processed

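Hippocampal RNA of 6 mutants and 5 controls was profiled by the authors on 12 Illumina MouseWG-6 v2 arrays. They deposited an intensity per probe on a linear scale, before background subtraction or scaling, and next to it a detection p-value. They also deposited processed log2 values of the same arrays. Per the methods, these were background subtracted, quantile normalized, log2 transformed and analysed with limma, which the processing notes of the submitters list too, with versions not given in the sources used here. Which form of background subtraction the deposited log2 values carry is unknown, and they were used as an alternative.

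Of 46089 lines, 954 without a probe name were left out and 45135 probes were tested, of which the platform annotation gives 34773 a single gene symbol, 18 more than 1 and 10344 no symbol. With limma 3.58.1 in R 4.3.3, background was removed by means of the detection p-values (neqc, offset 16) and arrays were quantile normalized on the log2 scale. The 2 arrays of mutant 6 were averaged, and lmFit and eBayes gave mutant minus control over 11 animals (2.12 prior degrees of freedom), and p-values were adjusted over all probes by Benjamini-Hochberg. A probe was called detected at a detection p-value under 0.01 (for mutant 6, on both arrays), and a probe detected in no animal of a group was called not well above background in it. The number of arrays limits the precision, and the median SD between animals of a group was 0.28 (log2). Exact permutation tests covered all 462 splits of the animals, and correlations were tested with 100000 resamples in SciPy 1.17.1. All tests were two-sided. Same-numbered mutants and controls did not deviate together in every pair (r of -0.06 to 0.62 over 15982 probes), so the numbers were not used to pair animals. Promoter windows, from 250 bases before to 50 after each start, came from RefSeq (GRCm38.p6). The steps were tested on simulated signals.

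Named in the text are all probes of the members and, from each further list, each gene at an unadjusted p under 0.05 on its brightest probe or else the 2 smallest p-values. To these were added Rrn3 and the 3 genes most correlated with Hspa5 and with Clgn. Members and lists were chosen with earlier results of these data known. Alternatives were cyclic loess, uncorrected background, the deposited log2 values, a detection filter, mean-dependent shrinkage, either array of mutant 6, number series or replicate number as a block, each animal left out, and each number series alone. Those on Xist and on the pairs of probes were added after the data were seen.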

Additional observations from a re-analysis of the deposited data

Results flagged for a closer look

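In 3 of 52 groups examined, 1 animal lay far from the others, and chance gives about 1 in 20 such groups. For Ddit3 (ILMN_2652909) in the mutants, mutant 3 had a signal of 8.50 (log2), below the next at 8.99, a gap of 0.698 of the whole range that ends at 9.21. Mutant 3 was also the lowest mutant on the other Ddit3 probe and on Clgn (ILMN_2917723), and it is the mutant with Xist at background. Any link between these values was not tested. For Nploc4 (ILMN_2759770) in the controls, control 2 had a signal of 7.89, above the next at 7.71, a gap of 0.759 of the range. For Creb3l1 (ILMN_2595260) in the controls, control 5, the only control of the 300s, had a signal of 4.69, above the next at 4.23, a gap of 0.855 of the range.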

How the results depend on the processing

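The count of 5 member probes at an unadjusted p under 0.05 was between 4 and 7 under every alternative, and no relation with Hspa5 passed after adjustment under any of 4. At an unadjusted permutation p of Pearson's r under 0.05 there was 1 with genotype means removed (Atf4), 1 with the deposited values (Xbp1), 1 within the 200s (Clgn, r = -0.79) and 0 without the 2 farthest animals. Member probes at an unadjusted p under 0.001 (1 as reported) numbered 0 with the detection filter, 0 with mean-dependent shrinkage, 0 within the 200s, 0 within the 300s, 2 with the replicate block and 3 among animals with Xist signal, and 1 to 3 when 1 animal was left out (3 without mutant 3, 2 without control 3, 2 without control 5). All probes at that threshold (38) numbered 11 with the filter and 12 with the shrinkage. Further genes of the response at an unadjusted p under 0.05 (5) numbered 8 with cyclic loess, 2 with the filter, 2 with the shrinkage, 9 with the replicate block and 9 among animals with Xist signal, and 3 to 9 when 1 animal was left out (3 without mutant 1, 9 without control 5). Fewer animals or probes entered some of these fits, and the cause of the other moves was not tested. The replicate numbers share no known origin, so a call gained under the replicate block, such as Atf6 at an unadjusted p under 0.001 (limma, adjusted p = 0.866), carries no pairing. Under it Clgn (ILMN_1220599) was 0.26 and passed an unadjusted p under 0.05 (limma, adjusted p = 0.866).

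Signs turned only where the reported difference was small or within 1 number series. Herpud1 (ILMN_2790241) was -0.0025 with the deposited values, -0.0071 with cyclic loess, -0.011 with the second array of mutant 6, -0.0071 with the series as a block and -0.11 within the 200s, and -0.032 to 0.034 when 1 animal was left out. Herpud1 (ILMN_2790246) was -0.031 with the series block and -0.14 within the 200s, and -0.022 to 0.091 when 1 animal was left out. Trib3 was -0.0084 with the deposited values, -0.0048 without background correction, -0.0027 with cyclic loess, -0.012 with the second array and -0.12 within the 200s, and -0.084 to 0.19 when 1 animal was left out. Atf4 (ILMN_1223734) was -0.010 with the second array, -0.060 with the series block, -0.025 with the replicate block and -0.21 within the 200s, and -0.089 to 0.10 when 1 animal was left out. Within the 300s Hspa5 was 0.13, Ern1 -0.029 and Xbp1 0.18. The correlation of Ddit3 with Hspa5 was 0.21 with genotype means removed and 0.065 without the 2 farthest animals, where that of Pdia4 was -0.077. Ddit3, Clgn, Pdia4 and the measured Atf6 probe kept their sign in all 24 alternatives each. So did Atf4 (ILMN_2642681), which gave no call, and Hspa5, Ern1 and Xbp1 kept theirs in 23 each. Probes near background, above all those of Atf6, Trib3 and Hspa5, limit what the arrays can show.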
